A study of Rattus norvegicus with 6 samples.

Results

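Ribosomal protein genes were read in rat hippocampus on 6 one-colour Agilent arrays. Members were all non-control probes whose gene name was Rpl or Rps followed directly by a digit, or Rpsa, Rplp0, Rplp1 or Rplp2, with the S6 kinase names that start with Rps6k left out. This rule used names only and no measured value. It gave 146 probes for 81 of the 17337 genes on the array, printed as 164 of 42877 spots per array. Of the 81 genes, 49 carried large subunit names and 32 carried small subunit names. The ribosomal proteins themselves made up 75 of them, 45 of the large and 30 of the small subunit. The other 6 were the paralogs Rpl10l, Rpl22l1, Rpl36al, Rpl7l1 and Rps4y2, and Rps19bp1, which encodes a protein that binds the small subunit protein Rps19 and is no part of the ribosome.

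The cytosolic ribosome joins a small subunit, which reads the messenger RNA, and a large subunit, which forms the peptide bond. Its proteins are made in near-equal amounts, and many of their messenger RNAs start with a C and a run of pyrimidines, the terminal oligopyrimidine tract, through which the kinase mTOR controls their translation. In the brain these messenger RNAs are abundant in neurons and glia, and they are also found in neuronal processes.

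The question set by the design was how hippocampal expression changes over the weeks of reduced cerebral blood flow that follow permanent occlusion of both common carotid arteries (BCCAo). All RNA came from male Wistar rats, and each array held pooled RNA of a single group. The groups were a control with no day given, and rats at day 21, day 35, day 45, day 55 and day 70 of BCCAo. The labels give ages of 12 weeks for control and of 13, 14, 15, 16 and 17 weeks for the 5 days in turn, steps of 1 week that are shorter than the steps in days. How many animals went into a pool is not stated in the labels, nor is any sham operation of the control rats. With 1 array per group there was no replicate, no test was possible and no error is given, so every difference below is a difference between arrays. A first slide held control with days 21 and 35, and a further slide held days 45, 55 and 70, so for the later days slide and time cannot be told apart. All 5 differences from control share the single control array.

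Signal is given as a multiple of the array's 75th percentile, which was 1242.9 to 1504.4 intensity units, and differences are given on the log2 scale as the day minus control. Of the non-control spots, 74.5% to 80.2% per array were well above background. Markers of hippocampal pyramidal cells, dentate granule cells and neurons in general were read on the arrays, with summed signals of 16.1 to 22.5, 0.498 to 0.589 and 22.3 to 27.7 over the 6 arrays. Probes printed 10 times on each array gave a spot-to-spot SD within an array of 0.05 to 0.07 on the log2 scale. From it an SD of 0.08 was derived for a difference between arrays. That value covers the spread between spots only, and leaves out labelling, hybridization and scanning that differ from array to array.

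Probes of many ribosomal protein genes were near the top of the scanner's range. Each gene was read from its brightest probe, so saturation of that probe decided whether the gene could be compared. The scanner software marked 17 to 26 of the 164 member spots per array as saturated. These were 12.3% to 15.4% of all saturated spots, although member spots were 0.38% of the spots. The 11 genes saturated on all 6 arrays were Rpl13a, Rpl21, Rpl24, Rpl35, Rpl37a, Rpl41, Rplp0 and Rplp2 of the large subunit, and Rps12, Rps23 and Rps29 of the small subunit. Rplp0 and Rplp2 belong to the stalk that binds elongation factors, so of that stalk only Rplp1 could be followed. Of these 11, all probes of Rpl13a, Rpl41, Rplp0, Rplp2, Rps12 and Rps29 were saturated, while Rpl21, Rpl24, Rpl35, Rpl37a and Rps23 also had a dimmer probe that never was. At day 21 these dimmer probes were above control by 0.40 and 0.41 for Rps23, 0.19 for Rpl24, and 0.07 and 0.08 for Rpl35, that of Rpl21 was at -0.04, and those of Rpl37a gave 0.08 and, for a dim probe to another transcript at 0.0838 on day 21 and 0.13 in control, -0.63. Another 10 genes were saturated on 1 to 5 arrays, among them Rpl10, Rpl26, Rpl31, Rpl34, Rpl35a, Rpl38, Rpl9, Rps10 and Rps14. The remaining 60 genes were never saturated. A gene saturated on both arrays of a comparison, or on the dimmer array alone, has no difference here. A gene saturated on the brighter array alone has a bound. At the dim end, 80 of 81 genes were well above background on all 6 arrays, and the exception was Rps19bp1, on 3 arrays.

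At day 21 nearly all ribosomal protein genes that could be compared were higher than in control, by a small and similar amount. Of 69 genes with a difference, 8 of them only a bound, 64 were above control at day 21, where 39.5% of all 13823 genes compared were. Their median difference was 0.20, against -0.07 over all genes. For 217 other genes as bright as the members, 207 of them with a difference, the median was -0.03. Past 1.2-fold (0.26 on the log2 scale), 23 of the 69 were higher, where 16.4% of all genes were, and 2 were lower, where 22.7% of all genes were. Of the 207 other genes as bright, 22 were higher and 8 lower. None of the 69 was 2-fold higher or 2-fold lower, where 3.62% of all genes were 2-fold higher and 1.86% were 2-fold lower. The median kept its direction but was 0.10 after quantile normalization and 0.12 in the authors' deposited table of values, with 12 and 13 genes at least 1.2-fold higher and with 55 of 68 genes above control in that table. Taken probe by probe, 116 of 129 member probes with a difference were above control.

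**Figure D1:**
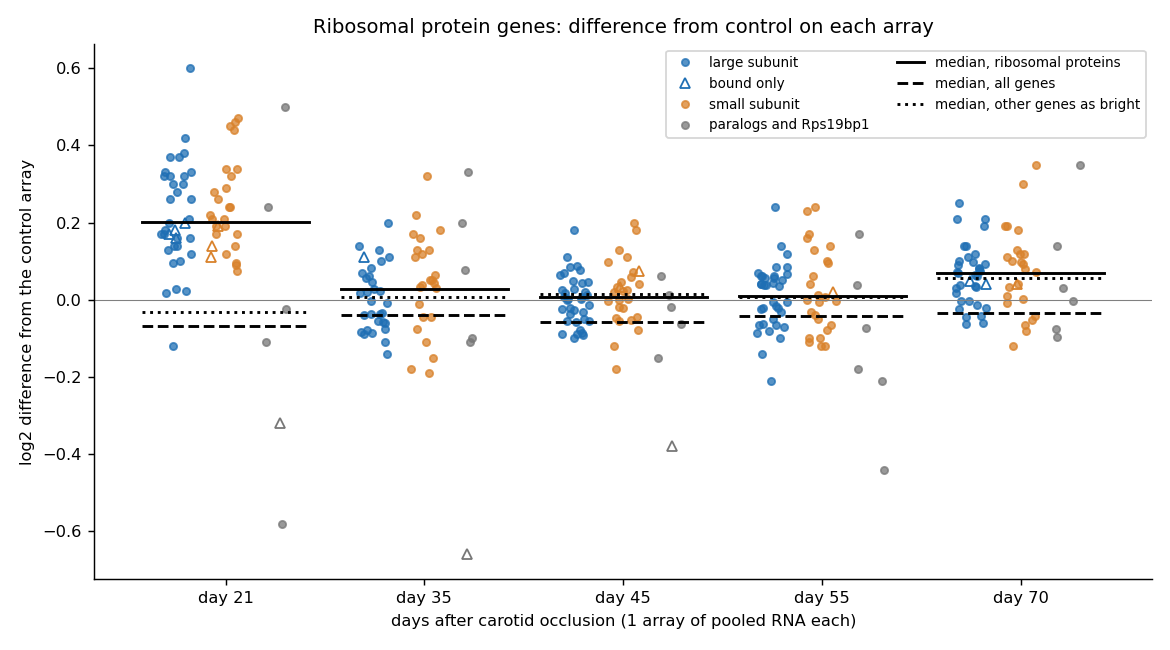
Difference from the control array (log2, vertical axis) for each ribosomal protein gene at days 21, 35, 45, 55 and 70, with large subunit genes in blue, small subunit genes in orange, and paralogs and Rps19bp1 in grey. Open triangles are bounds, and lines are medians of the ribosomal proteins (solid), all genes (dashed) and other genes as bright (dotted). Points lie mostly above 0 at day 21 and around 0 at days 35, 45 and 55.

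The difference was seen in both subunits. Of the 36 large subunit proteins with a difference at day 21, 35 were above control, with a median of 0.19. All 27 small subunit proteins with a difference were above control, with a median of 0.21. The lower and upper quartiles were 0.14 and 0.32 in the large subunit and 0.16 and 0.31 in the small subunit. The single ribosomal protein below control was Rpl15, a large subunit protein read by a probe printed 10 times, at 0.338 on day 21 and 0.367 in control, a difference of -0.12. Of the 5 paralogs and Rps19bp1, 2 were above control and 4 below, with a median of -0.06.

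**Figure D2:**
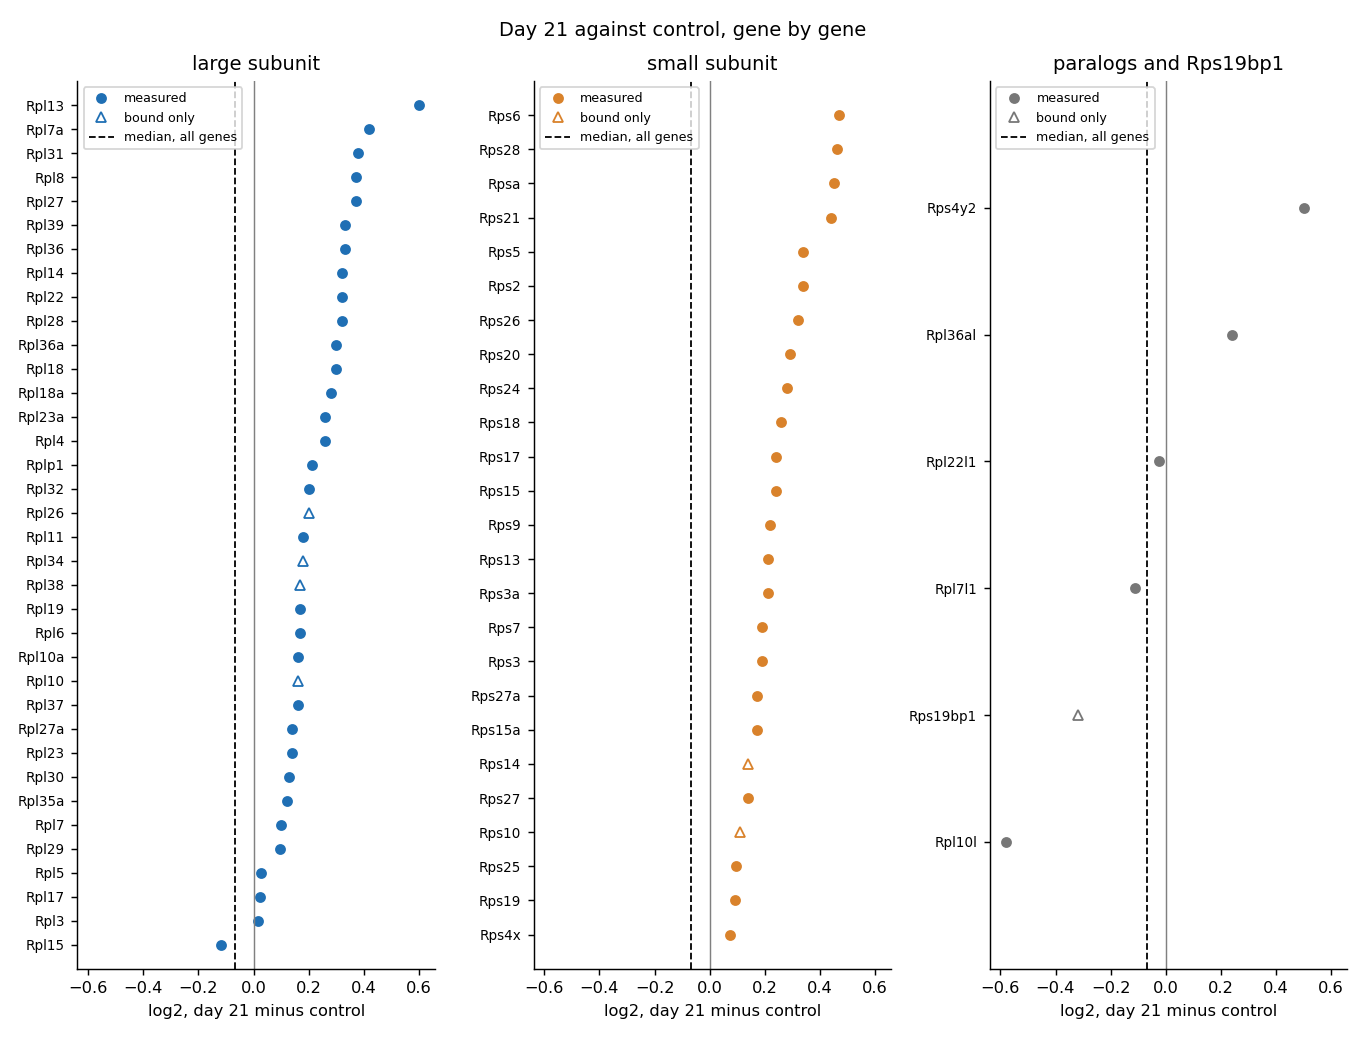
Difference between the day 21 and control arrays (log2, horizontal axis) for genes with a value, sorted within the large subunit, the small subunit and the paralogs with Rps19bp1. Triangles are bounds, the grey line marks 0 and the dashed line the median of all genes at -0.07, and among the ribosomal proteins proper Rpl15 alone lies left of 0.

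Among large subunit proteins the highest at day 21 was Rpl13. Its signal was 26.9 in control, 40.8 at day 21, 27.4 at day 35, 27.7 at day 45, 27.8 at day 55 and 31.9 at day 70. The day 21 array stood above the other 5 and the day 70 array was the next highest, and the difference at day 21 was 0.60, or 1.52-fold. Rpl7a, another large subunit protein, had 10.8 in control and 14.4, 11.8, 10.2, 9.38 and 10.8 at days 21, 35, 45, 55 and 70. It was 0.42 higher at day 21, and its difference at day 55 was -0.21. Rpl31, which lies near the exit of the peptide tunnel, had 37.3 in control and 48.5, 40.3, 38.6, 44.0 and 42.7 at the 5 days. It was 0.38 above control at day 21, and its day 35 spot was saturated, so the order of days 21 and 35 is not known from this probe. Its second probe, never saturated, had 31.7 in control and 38.0, 33.4, 31.8, 34.2 and 35.5, highest at day 21.

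The large subunit proteins with the least difference were Rpl3 and Rpl17. Rpl3, which reaches into the peptidyl transferase centre, had 35.7 in control and 36.1, 33.7, 33.3, 32.4 and 34.7 at days 21, 35, 45, 55 and 70. Rpl3 was within 0.02 of control at day 21 and below it at the 4 later days. Rpl17, a protein of the peptide tunnel exit, was 12.9 at day 21 and 12.7 in control by its brighter probe, a difference of 0.02. Its other probe was 0.46 higher at day 21, so the 2 probes of Rpl17 did not give the same size. The 4 large subunit proteins with bounds were at least 1.12-fold higher for Rpl10, 1.15-fold for Rpl26, 1.13-fold for Rpl34 and 1.12-fold for Rpl38. Rpl10 is a protein that joins the large subunit late in its assembly.

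Among small subunit proteins the highest at day 21 was Rps6, the main substrate of the S6 kinases in the ribosome. Rps6 signal by its brighter probe was 15.7 in control and 21.7, 19.6, 18.0, 18.4 and 20.0 at days 21, 35, 45, 55 and 70. By this probe all 5 arrays after BCCAo were above control, with differences of 0.47, 0.32, 0.20, 0.23 and 0.35. A second Rps6 probe, nearly as bright at 15.6 in control, gave 0.27, -0.03, 0.01, -0.07 and 0.10, so the 2 probes were alike in direction at day 21 but not at days 35 and 55. Rps28 had 33.7 in control and 46.3, 38.0, 38.1, 37.7 and 36.7, so it too was above control on all 5 arrays. Its difference was 0.46 at day 21 and between 0.12 and 0.18 at the later days. Rps21 had 30.1 in control and 40.9, 34.9, 29.7, 35.6 and 37.0, above control at days 21, 35, 55 and 70 and level with it at day 45. Its differences were 0.44, 0.22, -0.02, 0.24 and 0.30.

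Rpsa, a small subunit protein also known as the laminin receptor, had 14.6 in control and 20.0, 16.4, 14.4, 13.5 and 15.5 at days 21, 35, 45, 55 and 70. It was 0.45 higher at day 21 and 0.12 lower than control at day 55 by its brighter probe, while its other probe differed by 0.04 at day 21. Small subunit bounds at day 21 included at least 1.08-fold higher for Rps10 and 1.1-fold for Rps14. Rps25, a small subunit protein needed for some internal ribosome entry sites, had 5.58 in control and 5.96, 4.94, 4.91, 5.16 and 5.14, above control at day 21 and below it at the 4 later days, with differences of -0.18, -0.18, -0.11 and -0.12 there. By their brightest probes Rpl3, Rpl11, Rpl17, Rpl32, Rps19, Rps24 and Rps27a were likewise above control at day 21 and below it at the 4 later days. Other probes of Rpl17, Rpl32, Rps19 and Rps27a did not keep to this. At days 35, 45, 55 and 70 the other Rpl17 probe gave 0.35, 0.02, 0.10 and 0.21. The other Rps27a probe gave 0.20, 0.05, 0.06 and 0.22. An Rps19 probe gave 0.20 at day 35 and 0.11 at day 70, and an Rpl32 probe 0.02 at day 55 and 0.07 at day 70.

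**Figure D3:**
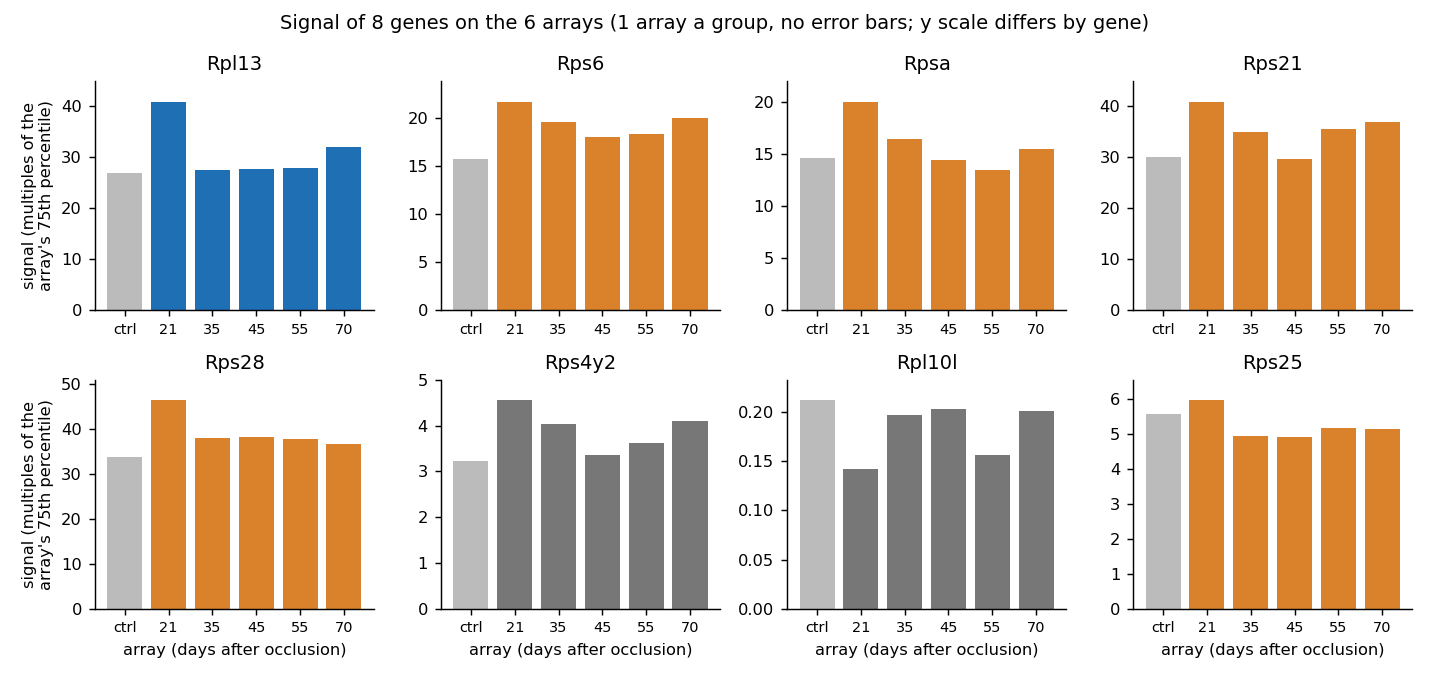
Signal of 8 genes (multiples of each array's 75th percentile, vertical axis starting at 0 and scaled per gene) on the control array (light grey) and the arrays of days 21, 35, 45, 55 and 70. Rpl13, Rps6, Rpsa, Rps21, Rps28 and Rps4y2 have their tallest bar at day 21, as does Rps25 at 5.96, whereas Rpl10l has its lowest there at 0.142.

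The paralogs did not share a direction at day 21. Rps4y2, a paralog of Rps4x, had 3.22 in control and 4.55, 4.04, 3.36, 3.63 and 4.1 at days 21, 35, 45, 55 and 70 by its brighter probe. That probe was above control at every day, by 0.50 at day 21 and 0.33 at day 35, but the dimmer probe of Rps4y2 went the other way, at -0.27 and -0.64. Rpl10l, a retrogene copy of Rpl10 known for its role in the testis in mice, had 0.212 in control and 0.142, 0.197, 0.203, 0.156 and 0.201. It was 0.58 lower at day 21 and 0.44 lower at day 55, and its second probe gave -0.51 and -0.42 there. Rpl7l1 had 0.928 at day 21 and 0.998 in control, Rpl22l1 12.7 and 12.9, and Rpl36al 7.07 and 5.99, differences of -0.11, -0.02 and 0.24. Rps19bp1 had 0.0115 at day 21 and 0.0178 in control and was at least 1.25-fold lower at day 21, where its spot was not well above background.

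Probes of the same gene usually gave close values. Over the 39 genes with 2 or more probes that could be compared at day 21, the median gap between the highest and lowest probe was 0.13, and 3 genes had a gap over 0.5. These were Rps4y2, Rpl37a, whose 2 unsaturated probes gave -0.63 and 0.08, and Rpl28, whose probes ran from -0.24 to 0.32. At day 55 a gap over 0.5 was also seen for Rpl36a, from -0.31 to 0.22. The lowest values of Rpl28 and Rpl36a came from dim probes, at 0.0218 and 0.0181 in control. That of Rpl36a was well above background on 4 arrays only. The other probes of Rpl28 gave 0.32 and 0.31 at day 21, and those of Rpl36a 0.04, 0.07 and 0.22 at day 55. In the files' build rn4, 21 of 133 member probes were placed on another chromosome than the gene has in RefSeq, and ribosomal protein genes have many near-identical pseudogenes, so signals of a gene and its copies cannot be told apart on these probes.

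The day 21 difference was as large in genes away from saturation. The 51 genes without a saturated pixel on any array had a median of 0.21 at day 21, with 46 of 51 above control. The 18 genes with saturated pixels on at least 1 array and a difference had a median of 0.19, and all 18 were above control. With saturated genes kept at their recorded values, all 81 genes had a difference, 75 of them above control, and the median was 0.17. Once scaled, the scanner's limit equals 49.8 in control and 52.5 at day 21. Scaling alone thus tends to put genes saturated on both arrays higher at day 21, so these added genes cannot show a direction.

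**Figure D4:**
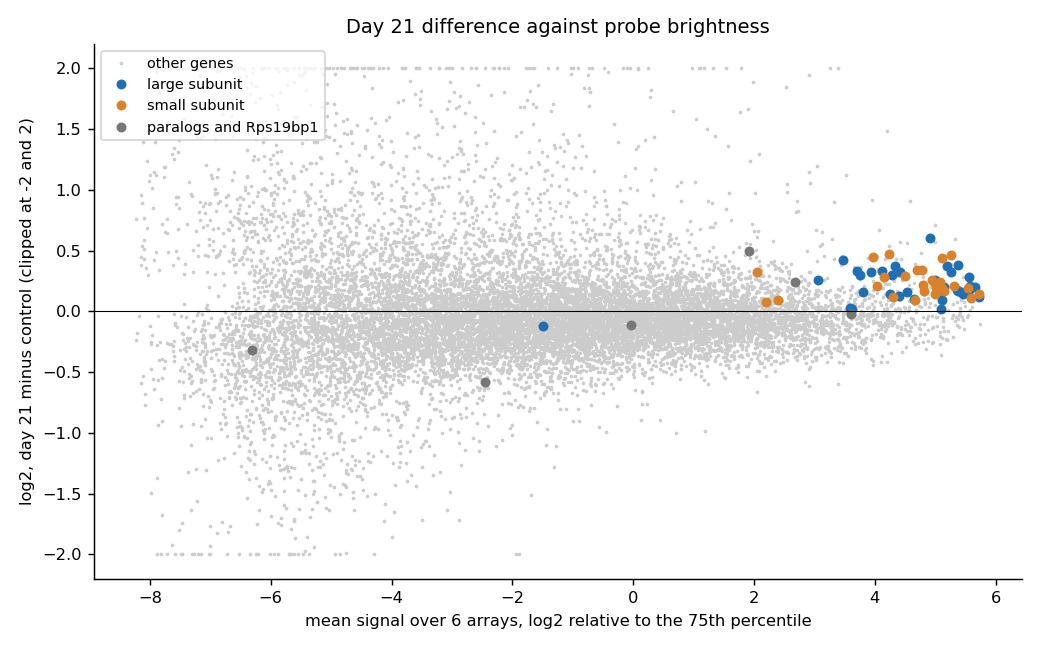
Difference between day 21 and control (log2, vertical axis, clipped at -2 and 2) against the mean signal over the 6 arrays (log2 relative to the 75th percentile, horizontal axis) for other genes in light grey and the ribosomal protein genes in colour. Most of the coloured points lie at the bright end and above 0, while other genes as bright had a median of -0.03.

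Day 21 was the array with the highest signal for most of the genes. Of 59 genes that were unsaturated and above background on all 6 arrays, day 21 was highest for 51, where it was highest for 23.9% of all genes. Control was highest for 2 of the 59 (20.1% of all genes), day 35 for 1 (14.2%), day 45 for 1 (12.1%), day 55 for 0 (17.4%) and day 70 for 4 (12.4%). On the same slide, day 35 was below day 21 for 55 of 59 genes and above it for 4, where 53.9% of all genes were above, and the median was -0.20, against 0.03 over all genes. At least 1.2-fold lower at day 35 than at day 21 were 21 of the 59, where 20.6% of all genes were, and 1 was at least 1.2-fold higher, where 18.3% were. The share past 1.2-fold lower, 21 of 59, is above that of all genes, though the sizes were small. Under quantile normalization this median was -0.12, with 8 genes at least 1.2-fold lower, and scaled on the array median 10 of 59 genes were above day 21 in place of 4.

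At days 35, 45 and 55 ribosomal protein genes lay around the control level. At day 35, 34 of 61 genes were above control, where 41.8% of all genes were, and the median was 0.03, with -0.04 over all genes and 0.01 over other genes as bright. Past 1.2-fold at day 35 were 2 higher and 1 lower, where 6.84% and 17.3% of all genes were. Of 199 other genes as bright, 7 were higher and 10 lower. The 2 higher members were Rps4y2 and Rps6, and the 1 lower was Rps19bp1, by a bound of at least 1.58-fold. Both were higher by the brighter probe only, the second probes giving -0.64 for Rps4y2 and -0.03 for Rps6, and with a gene's probes averaged 0 genes were at least 1.2-fold higher at day 35. Among the lowest above background were Rps25, Rps27, Rpl23, Rpl22l1 and Rps19, between -0.18 and -0.11. Read against the mean of the day 21 and control arrays on its slide, day 35 had a median of -0.09, with 13 of 59 genes above.

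At day 45, 37 of 69 genes were above control, where 38.3% of all genes were, and the median was 0.00, with -0.06 over all genes. None was at least 1.2-fold higher, where 4.34% of all genes were, and Rps19bp1 alone was lower, where 27.3% of all genes were. Rps6, Rpl27, Rps28, Rps18, Rps7 and Rpl28 were the 6 highest at day 45, between 0.11 and 0.20. At day 55, 34 of 68 genes were above control, where 41.6% of all genes were, and the median was again 0.00, with -0.04 over all genes. None was at least 1.2-fold higher, where 7.8% of all genes were, and Rpl10l alone was lower, where 23.2% of all genes were. Few members were thus past 1.2-fold on these 2 arrays, and no test of that was possible. Other genes as bright were also seldom past it. At day 45, 3 of 205 were higher and 13 lower, and at day 55, 10 of 206 were higher and 7 lower.

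At day 70 the genes stood slightly above control. Of 66 genes 48 were above control, where 42.5% of all genes were, with a median of 0.07, against -0.04 over all genes and 0.06 over other genes as bright. Rps6, Rps4y2 and Rps21 were the 3 at least 1.2-fold higher, at 0.35, 0.35 and 0.30, where 5.54% of all genes were, and 0 were lower, where 23.9% of all genes were. Of 204 other genes as bright, 9 were higher and 5 lower. The other probes of Rps6 and Rps4y2 gave 0.10 and -0.18, and with a gene's probes averaged 1 gene was at least 1.2-fold higher. The day 70 array was above the day 45 array of its slide for 51 of 64 genes, with a median of 0.06, and above it for 55.9% of all genes. Of other genes as bright, 148 of 204 were above day 45, with a median of 0.05, and scaled on them 24 of 63 ribosomal protein genes were above day 45, with a median of -0.02. Past 1.2-fold between these 2 arrays were 3 higher and 0 lower, where 11.8% and 7.25% of all genes were. Of the 204 other genes as bright, 12 were higher and 1 lower.

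The position of the genes around control at days 35 to 70 depended on the scaling. Scaled on the array median in place of the 75th percentile, which moved the median of all genes at day 45 to 0.07, the numbers of genes above control were 47 of 62 on the day 35 array, 66 of 69 on day 45, 56 of 69 on day 55 and 68 of 69 on day 70. Scaled on other genes as bright, 33 of 63 were above control at day 70, with a median of 0.00. At day 21 the median was above 0 under each of the 11 alternatives, between 0.10 and 0.21. Large and small subunit medians stayed close to each other at the later days, with 0.00 and 0.05 on the day 35 array, 0.00 and 0.02 on day 45, 0.04 and 0.00 on day 55, and 0.07 and 0.08 on day 70.

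Many ribosomal protein promoters carried the pyrimidine start in the reference genome. RefSeq promoters on rat build GRCr8, from 250 bases before to 50 bases after each annotated start, were matched by symbol for 64 of the 81 genes, 65 promoters in all. A C at the start followed by at least 4 bases that are C or T was present in 24 of the 65, 36.9%, against 2.63% of all 33469 promoters. Allowing the start to shift by up to 5 bases, it was present in 40, 61.5%, against 17.0% of all promoters. The motif CCGGAAG, a form of the site bound by ETS family factors such as GABPA, was found on either strand in 21 of 65, 32.3%, against 8.75% of all promoters. On the other strand it reads CTTCCGG and can overlap the tract, so the counts of tract and motif are not separate. Mitochondrial ribosomal protein promoters had the tract at the start in 3.45% and the motif in 31.0%.

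The starts of the 5 promoters with the longest tracts are shown first, to show what the tract looks like, with capitals for the tract and 20 bases before and 20 bases from the start on. The starts of the 5 ribosomal proteins highest at day 21 whose promoter was in the table follow for comparison. None of these carried the tract at the annotated start, so they are in lower case throughout. Positions are in GRCr8, with Rpl10 at chrX:157205830-157205869 (plus strand), Rpl31 at chr9:49143091-49143130 (plus), Rpl37a at chr9:81748071-81748110 (plus), Rpl19 at chr10:83519044-83519083 (plus) and Rpl28 at chr1:78083513-78083552 (minus). Rpl13 is at chr19:68062494-68062533 (plus), Rps6 at chr5:106420521-106420560 (minus), Rps28 at chr7:15311314-15311353 (minus), Rpsa at chr8:128728859-128728898 (plus) and Rps21 at chr3:187724018-187724057 (plus).
Rpl10: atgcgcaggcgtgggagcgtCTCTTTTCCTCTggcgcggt
Rpl31: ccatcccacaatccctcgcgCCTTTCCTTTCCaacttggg
Rpl37a: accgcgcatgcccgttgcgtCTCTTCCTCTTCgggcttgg
Rpl19: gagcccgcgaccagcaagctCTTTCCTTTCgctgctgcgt
Rpl28: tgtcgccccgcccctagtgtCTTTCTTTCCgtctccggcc
Rpl13: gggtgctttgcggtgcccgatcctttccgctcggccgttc
Rps6: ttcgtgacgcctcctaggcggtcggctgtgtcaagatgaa
Rps28: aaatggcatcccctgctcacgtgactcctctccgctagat
Rpsa: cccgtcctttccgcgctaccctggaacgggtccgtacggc
Rps21: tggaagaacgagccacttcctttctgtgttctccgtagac

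The annotated start decides whether a tract is counted. In the letters above a pyrimidine run lies just after that start in Rpl13 and a few bases after it in Rps28. A run lies across the start in Rps21 and before it in Rpsa. The day 21 differences were much alike with and without the tract at the annotated start. The 20 ribosomal proteins with the tract and a difference had a median of 0.20 at day 21, and all 20 were above control. The 29 without it had a median of 0.20, and all 29 were above control. The 14 with a difference and no promoter in the table had a median of 0.22, with 13 above control. These are descriptions of messenger RNA level, and translation was not measured.

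Other parts of the translation machinery did not show the same uniform difference at day 21. The list of ribosomal proteins outside the naming rule had 3 on the array. It left out Rpl12, which carried a locus name on the array and is described below. The 2 Rpl12 probes were 0.26 and 0.29 higher than control at day 21. Of the 3 listed, 2 were above control at day 21, and the highest difference among them was 0.18. Among them Fau, fused to a ubiquitin-like protein, had 56.0 at day 21 and 51.3 in control, a difference of 0.13. Rack1, a scaffold on the small subunit, had 2.86 at day 21 and 3.14 in control, a difference of -0.13. The list of 16 elongation factors and other tract messenger RNAs had 10 above control, with a median of 0.07, and past 1.2-fold 3 were higher and 2 lower. Of the 13 RefSeq promoters matched to this list, 0 had the tract at the annotated start and 5 had it within 5 bases. Eef1a1, which brings aminoacyl-tRNA to the ribosome, had 33.1 at day 21 and 23.8 in control, a difference of 0.48. Pabpc1, the poly(A)-binding protein, had 23.9 and 17.7, a difference of 0.43. The other 3 past 1.2-fold, named after their values were seen, were Eef1d at 0.28, Eif3e at -0.36, and Eef2, the translocation factor, at -0.39.

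Initiation factors, ribosome assembly genes and mTOR signalling genes had day 21 medians near the -0.07 of all genes. Of 19 initiation factors 5 were above control, none was past 1.2-fold in either direction and the median was -0.08, with Eif5a at -0.22 and Eif4a1 at -0.21 furthest from 0. Of 28 ribosome biogenesis genes 11 were above control, 1 was at least 1.2-fold higher and 2 lower, and the median was -0.04. Rrn3, an RNA polymerase I initiation factor, had 0.0309 at day 21 and 0.0512 in control, a difference of -0.73, and Myc had 0.269 and 0.198, a difference of 0.44. Of 12 genes of mTOR and S6 kinase signalling 2 were above control, 1 was at least 1.2-fold higher and 2 lower, and the median was -0.10. Rps6kb2, an S6 kinase, had 2.7 at day 21 and 3.49 in control, a difference of -0.37, and Mtor had 0.109 and 0.134, a difference of -0.30.

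Mitochondrial ribosomal proteins, which build the separate ribosome inside mitochondria, did not show the day 21 difference as a list. Of 69 with a difference 26 were above control, 2 were at least 1.2-fold higher and 6 were lower, and the median was -0.03. Mrps10 had 0.054 at day 21 and 0.102 in control, a difference of -0.92. Mrpl52 had 0.197 at day 21 and 0.106 in control, a difference of 0.90, and at day 35 it was 1.05 higher, the only 2-fold difference from control in these lists at any day. No difference between the lists was tested.

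**Figure D5:**
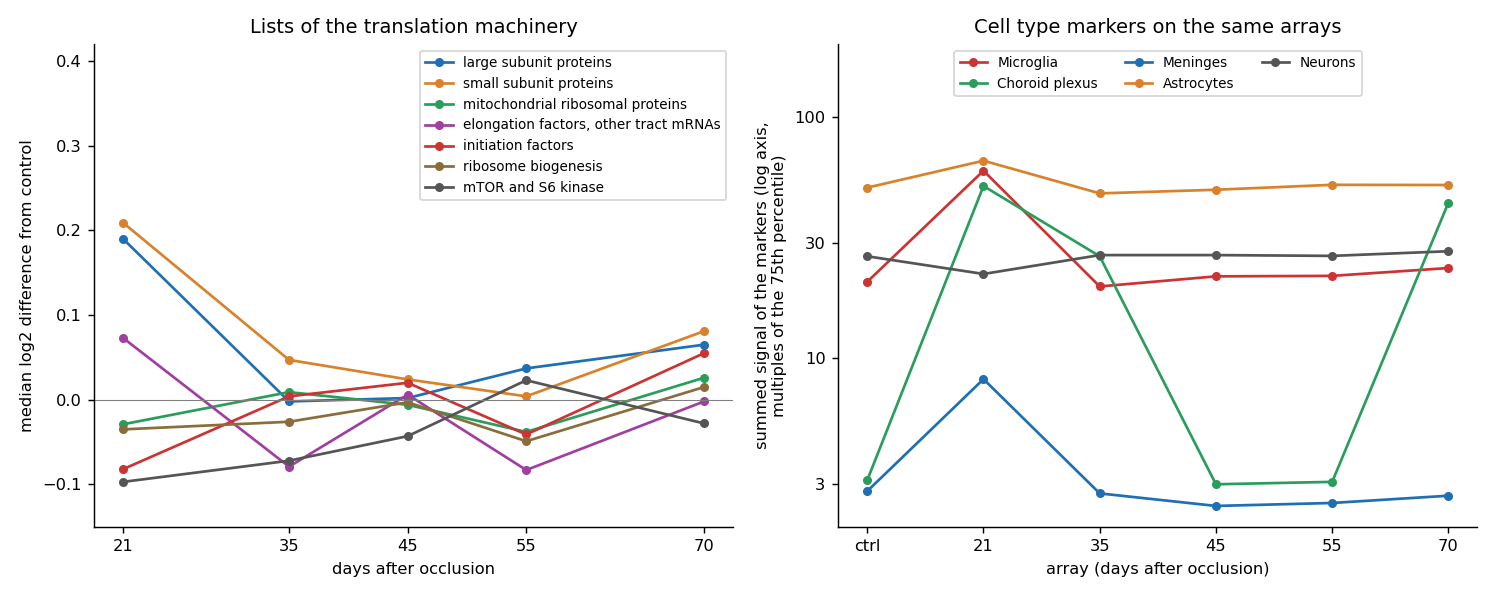
Left, median difference from control (log2) at each day for large and small subunit proteins and 5 other lists of the translation machinery. Right, summed signal of cell type markers (log axis, multiples of the 75th percentile) on the same arrays, where microglia, choroid plexus and meninges markers peak at day 21, at 59.7, 51.6 and 8.18.

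Markers of other cell types also differed on the day 21 array. In bulk tissue, a change in the number of cells of a type and a change in RNA per cell cannot be told apart. All 12 microglia markers were above control at day 21, with a median of 1.65, and their summed signal was 20.7 in control and 59.7, 19.8, 21.8, 21.9 and 23.6 at days 21, 35, 45, 55 and 70. The 6 meninges markers were all above control at day 21, with sums of 2.81 in control and 8.18, 2.75, 2.44, 2.51 and 2.69. These 2 sums were high at day 21 and near control at the other days. Choroid plexus markers, all 7 above control at day 21, had sums of 3.12 in control and 51.6, 26.4, 3.0, 3.07 and 44.0, so they were also high at days 35 and 70, where the ribosomal protein medians were 0.03 and 0.07.

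Astrocyte and oligodendrocyte markers summed to 65.7 and 43.1 at day 21 and to 50.8 and 35.0 in control, with 6 of 6 and 6 of 7 markers above control. The 5 neuronal markers were all below control at day 21, with sums of 22.3 at day 21 and 26.4 in control, and so were the 5 pyramidal cell markers, with sums of 16.1 and 20.3. Thalamus markers, of tissue next to the hippocampus, summed to 1.52 at day 21 and 1.01 in control, with 3 of 4 above control, and to 1.48 and 1.32 at days 35 and 55. Red blood cell markers summed to 69.1 at day 21 and 60.4 in control, with 4 of 4 above control, and endothelium markers to 5.39 at day 21 and 6.2 in control, with 4 of 5 below. No list had a marker that was below background on all 6 arrays. The part of these cell types in the ribosomal protein difference was not tested.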

How the data were processed

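Hippocampal RNA was extracted with TriPure, combined into pools and labelled with an Agilent linear amplification kit, per the labels' protocols. The labels name Cy5, whereas the scanner files hold the green channel. The authors deposited spot intensity per array from Agilent Feature Extraction 10.7.3.1 (design 028282, positions in rn4), background-subtracted and detrended with no scaling between arrays, per the file headers. Their deposited table of intensity values, 41507 rows, had equal quantiles across arrays and was used as an alternative.

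Outlier spots were left out, log2 intensity was centred on each array's 75th percentile, spots of a probe were averaged, and each gene was read from its brightest probe. Of 30367 probes, 20677 were named and 9690 were not. A gene was compared where at least 1 of the 2 arrays was well above background. Calls were folds of 1.2 and 2. No test was run, with 1 array per group, whose number limits the precision. Genes named in the text were the 6 highest and 6 lowest per day, saturated genes, bounds, probes over 0.5 apart, and the 2 largest differences of each other list. A few genes that this rule names are not reported here. The members and lists were chosen with earlier results of these data known. Alternatives covered background correction (normexp with an offset of 50, limma 3.58.1), scaling, probe choice, saturation, filtering and the baseline array. Analyses used Python 3.11.15, pandas 2.3.3, numpy 2.4.6 and R 4.3.3.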

Additional observations from a re-analysis of the deposited data

How the results depend on the processing

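No paired analysis was possible because each group had 1 array. The 11 alternatives included 1, the brightest probe without a saturated pixel, chosen after seeing the data. Over them, 68 values of the ribosomal protein median stayed within the spot-to-spot error and 7 moved beyond it. That error, 0.08, is for a single probe and is larger than the medians at days 35 to 70. A median could thus stay within it and change sign, as at day 35, from 0.027 to -0.039 with saturated genes kept. At day 21 the median of 0.199 was 0.104 after quantile normalization and 0.12 in the authors' deposited table, and the 23 genes at least 1.2-fold higher became 12 and 13. With a gene's probes averaged, genes at least 1.2-fold higher numbered 0 at day 35 and 1 at day 70, against 2 and 3. At day 35 the median was -0.093 against the mean of the other arrays on the slide. Scaled on the array median, it was 0.125 at day 45 and 0.158 at day 70, with 3 and 10 genes at least 1.2-fold higher against 0 and 3, and at days 35 and 55 such genes numbered 5 and 3 against 2 and 0. Day 35 minus day 21 was -0.12 after quantile normalization, and the 21 genes at least 1.2-fold lower became 8, with 5 on the array-median scale. Day 70 minus day 45 was -0.02 when scaled on other genes as bright, with 24 of 63 genes above, and 36 of 67 genes were above after quantile normalization and 34 of 66 in the authors' table, against 51 of 64. At day 70, 41 of 68 genes were above control in the authors' table. Of 777 values of single genes 606 stayed within that error, 170 moved and 1 reversed, Rps4y2 at day 35, which was -0.154 as the mean of all its probes. The difference between the large and small subunit medians stayed within that error in all 55 recomputed values, though that error exceeds the difference itself. The cause of these movements was not tested. Saturation of the brightest probe leaves the 11 genes saturated on all 6 arrays with no difference at any day. Rpl9, saturated on 5 arrays including control, has none either. Of the 11, 6 have no unsaturated probe, and without replicates the spread between animals is unknown.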

Other observations

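Some probes carry a locus name in the scanner files that RefSeq now gives to a ribosomal protein gene or a copy of one. These 22 probes, under 19 names, were outside the naming rule. Of the 20 with a difference, 18 were above control at day 21, with a median of 0.245, and the medians at days 35, 45, 55 and 70 were 0.09, 0.015, 0.065 and 0.12. The 2 probes now named Rpl12, a large subunit protein, were 0.26 and 0.29 higher at day 21. The probes of the pseudogenes Rpl19-ps25 and Rpl29-ps23 were further from control than most ribosomal protein genes. Rpl19-ps25 had 33.2 at day 21 and 17.7 in control by its brighter probe, a difference of 0.91, and 1.11 by the other, and both were above control at all 5 days. Rpl29-ps23 had 0.924 in control and 1.52, 1.84, 1.1, 1.45 and 1.7 at days 21, 35, 45, 55 and 70, with differences of 0.72, 0.99, 0.26, 0.65 and 0.88. These genes were named after their values were seen, and their probes can also bind messenger RNA of the parent genes Rpl19 and Rpl29.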
